A study of Bos taurus with 11 samples.

Results

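The miR-106b, miR-93 and miR-25 cluster is a group of 3 miRNAs that are cut from one primary transcript. It was examined in small RNA libraries of mammary gland biopsies from 5 Holstein and 6 Montbéliarde cows, each of which gave 1 library. The members were taken by their identifiers, bta-miR-106b, bta-miR-93 and bta-miR-25, and all 3 were found among the 796 miRNAs listed in the count table. Both groups were lactating dairy cows at mid-lactation, fed the same diet and sampled with the same biopsy and library protocol, so breed is the only labelled difference. The comparison of the breeds asks whether their mammary glands contain different amounts of these miRNAs. Libraries are named here by the breed and by the tag in their labels. The Holstein tags are CNLX1, CNLX3, CNLX5, CNLX7 and CNLX9, the Montbéliarde tags are the odd ones from CNLX13 to CNLX23, and whether the tags mark an order of preparation is not stated. An effect of such an order and the effect of breed cannot be told apart.

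The cluster lies in an intron of MCM7, which encodes a subunit of the helicase that unwinds DNA at replication origins, and it is transcribed together with this host gene in many proliferating tissues. A miRNA binds its targets mainly through its seed, the bases at positions 2 to 8. By their seeds, miR-106b and miR-93 belong to the family of miR-17 and miR-20, which is known for restraining the cell cycle inhibitor CDKN1A and the TGF-beta receptor TGFBR2, whereas miR-25 belongs to the family of miR-92 and miR-32, which is known for restraining the pro-apoptotic gene BCL2L11. Copies of the same ancestral cluster form the miR-17 to miR-92a cluster and the miR-106a-363 cluster elsewhere in the genome, and both carry members of these seed families. In the RefSeq annotation of the cow assembly ARS-UCD2.0, the genes MIR106B, MIR93 and MIR25 follow each other in this order inside the span of MCM7, and no gene other than these overlaps that span. This assembly is not the one the reads were aligned to, so that only the names and the order were taken from it.

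The depth, as the sum of the miRNA counts of a library, was 7431936 to 16808976 in Holstein and 6087865 to 11395785 in Montbéliarde. Among the listed miRNAs, 10 pairs had counts in a constant ratio in every library, for example let-7b and miR-3596. None of these pairs held a member of the cluster. The same reads may thus be counted under more than 1 name, so these sums can exceed the number of reads. The paper reports more too-short and adapter reads in the Montbéliarde libraries than in the Holstein libraries, and a lower rate of reads kept after cleaning. Whether this bears on the levels was not tested. The biopsies contain several cell types, and in such bulk samples fewer cells of a type and less RNA per cell cannot be told apart. The 5 epithelial markers (miR-200a, miR-200b, miR-200c, miR-141 and miR-429) were all detected in the table. Their summed normalized read count was 347931 to 445509 in Holstein and 152474 to 450174 in Montbéliarde, with the lowest sums in CNLX21 (152474) and CNLX15 (160517). The sum of 6 fibroblast and smooth muscle markers, among them miR-143 and miR-145, was 1513730 to 2305720 in Holstein and 1928360 to 3870330 in Montbéliarde. The ranges also overlapped for the endothelial (251466 to 330168 and 239684 to 297167), leukocyte (18031 to 26952 and 17229 to 39422), erythroid (23603 to 39552 and 23429 to 57421) and skeletal muscle lists (618 to 1849 and 519 to 1620). None of the listed markers found in the table was at 0 in all libraries, and miR-206 was not in the table. The epithelial sum and the fibroblast and smooth muscle sum nevertheless tended to differ by breed. The epithelial sum was below every Holstein library in 5 of 6 Montbéliarde libraries, all but CNLX13, with a mean of 396113 in Holstein and 253088 in Montbéliarde. The fibroblast and smooth muscle sum was above every Holstein library in 4 of 6 Montbéliarde libraries, with means of 1852020 and 2774780. Such sums weigh abundant markers most, and the paper names miR-143 among the most abundant miRNAs of the gland. No single marker passed the adjusted threshold in edgeR or DESeq2. Before adjustment, 2 of 5 epithelial markers had an edgeR p of at most 0.05 and were lower in Montbéliarde, miR-141 (log2 fold change -0.74, adjusted p = 0.217) and miR-200c (-0.61, adjusted p = 0.322), and 2 of 6 fibroblast and smooth muscle markers were higher, miR-143 (0.58, adjusted p = 0.171) and miR-199a-3p (0.67, adjusted p = 0.246). Such a p was found for 14.2% of all tested miRNAs. The log2 fold changes of the remaining epithelial markers were -0.04 (miR-200a), -0.10 (miR-200b) and -0.33 (miR-429). In the fibroblast and smooth muscle list, miR-145 went the other way (-0.27). The remaining ones there were 0.06 (miR-199b), 0.54 (miR-199a-5p) and 0.83 (miR-214), so the markers of a list did not all move alike. The part of the cell makeup in the breed differences of the cluster was not tested.

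All 3 members were detected in each of the 11 libraries, at levels that differed widely although they come from one transcript. Levels are given as normalized read counts, the raw counts divided by 1 size factor per library. The mean over the 11 libraries was 18265 for miR-25, 3187 for miR-93 and 606 for miR-106b, which placed them at ranks 45, 80 and 138 among all listed miRNAs. The order, miR-25 above miR-93 above miR-106b, was the same in 11 of 11 libraries. Of the reads counted on the cluster, miR-25 held 82.7% ± 1.69, miR-93 14.5% ± 1.52 and miR-106b 2.79% ± 0.426 (SD, n = 11). The members have nearly the same length, but ligation and amplification can favour one sequence over another, so these ratios compare reads and are not ratios of molecules.

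miR-25, the most abundant member, was counted 11903 to 29299 times per library, so that counting error was far below the spread between cows. In the Holstein libraries CNLX1, CNLX3, CNLX5, CNLX7 and CNLX9 its normalized read count was 14487, 16269, 17679, 14799 and 15510. In the Montbéliarde libraries CNLX13, CNLX15, CNLX17, CNLX19, CNLX21 and CNLX23 it was 22678, 21294, 18235, 20040, 21778 and 18151. On this scale every Montbéliarde library was above every Holstein library. The same separation was found for 0.364% of the 550 miRNAs tested, miR-25 included, and that in the other direction for 1.64%, which makes 2% in either direction. The lowest Montbéliarde value was 1.03 times the highest Holstein value. Holstein cows averaged 15749 ± 1279 (SD, n = 5) and Montbéliarde cows 20363 ± 1884 (SD, n = 6). The log2 fold change, Montbéliarde over Holstein, was 0.37 (SE 0.13, 95% interval 0.09 to 0.65), and the unadjusted p of edgeR's quasi-likelihood test was 0.0133. After Benjamini-Hochberg adjustment over all 550 miRNAs the p was 0.222, so that miR-25 did not pass the threshold of 0.05. The DESeq2 Wald test on the same counts gave the same log2 fold change of 0.37 with an adjusted p of 0.0356, so the call for miR-25 depended on the test.

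**Figure D1:**
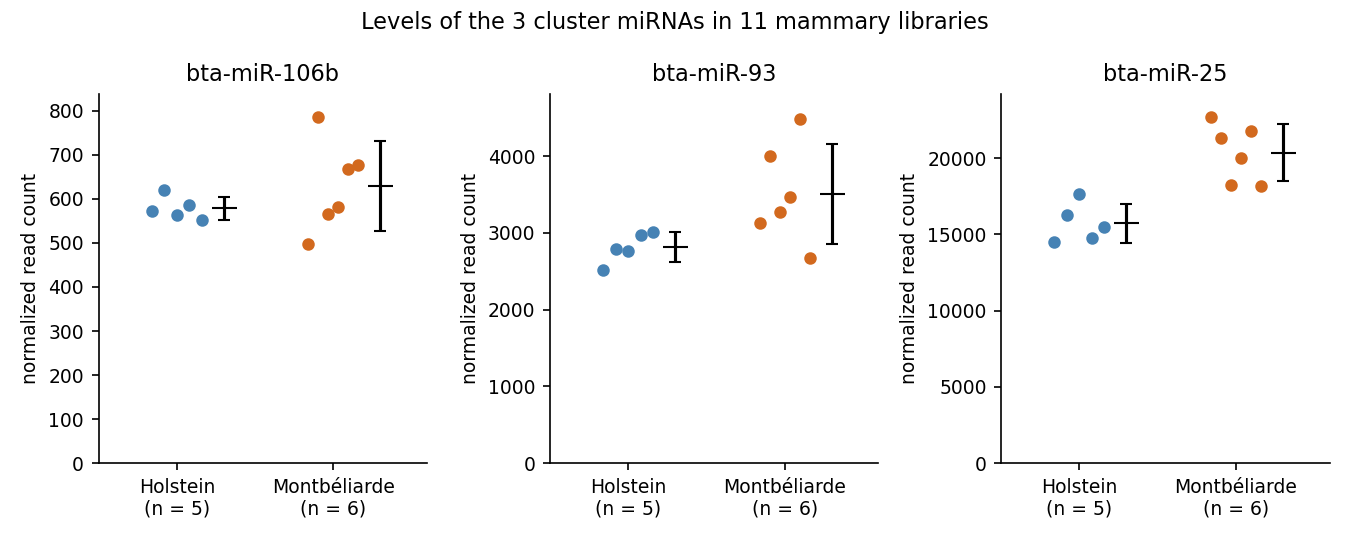
Normalized read counts of the 3 cluster miRNAs (vertical axes from 0, one panel per miRNA) in 5 Holstein (blue) and 6 Montbéliarde (orange) libraries. Each point is 1 library, and the black bar gives the mean with its SD. The breeds overlap for miR-106b and miR-93, whereas for miR-25 the Holstein points end at 17679 and the Montbéliarde points start at 18151.

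The separation of the breeds for miR-25 also depended on how the libraries were scaled. With TMM factors, the Holstein library CNLX5 (1830 CPM, counts scaled to a common library total) lay above the Montbéliarde library CNLX17 (1737 CPM), and 5 of 6 Montbéliarde libraries were above every Holstein library. The lowest Montbéliarde value was 0.949 times the highest Holstein value with TMM, 0.959 times with total counts and 0.893 times when the libraries were scaled to miR-26a, miR-92a and miR-191, the 3 internal controls of the RT-qPCR in the methods. With total counts and with the 3 controls, 5 of 6 Montbéliarde libraries were likewise above every Holstein library. The remaining one was CNLX17 with total counts and CNLX15 with the 3 controls. The ratio of the breed means moved less, from 1.29 with size factors, TMM and total counts to 1.33 with the 3 controls. Of these controls, miR-92a has the seed of miR-25 and is described with the relatives. For miR-93 and miR-106b the breeds overlapped under each of these scalings.

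**Figure D2:**
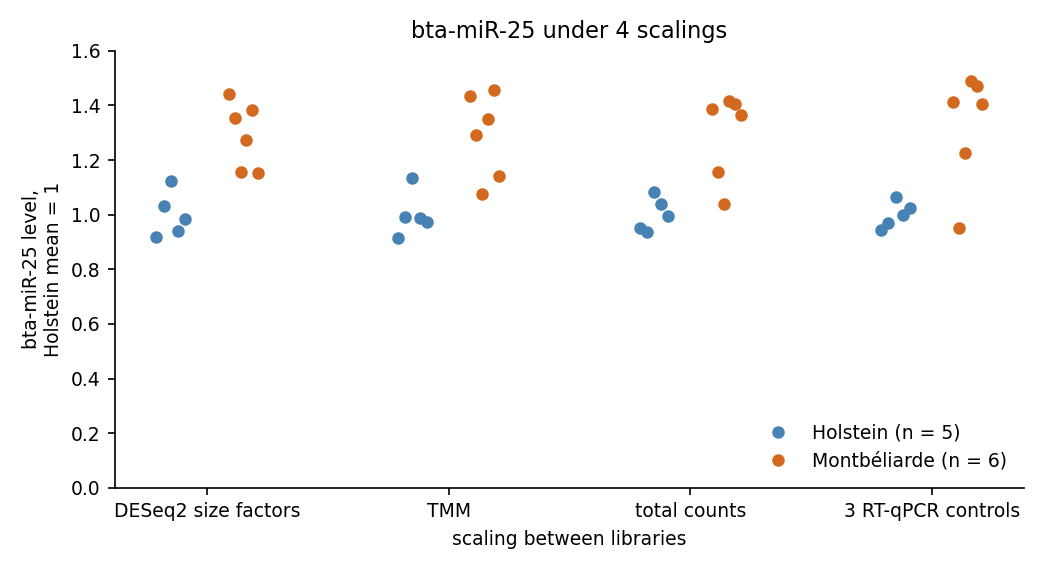
Level of miR-25 relative to the Holstein mean of each scaling (vertical axis from 0, no unit) under 4 ways of scaling the libraries (horizontal axis). Points are single Holstein (blue) and Montbéliarde (orange) libraries, which are separated with DESeq2 size factors and overlap with TMM, total counts and the 3 RT-qPCR controls.

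miR-93 was counted 1873 to 5310 times per library. Its normalized read count in the Holstein libraries, in the same order, was 2521, 2783, 2768, 2973 and 3010. In the Montbéliarde libraries it was 3122, 3995, 3272, 3462, 4486 and 2669. On this scale all Montbéliarde libraries except CNLX23 were above every Holstein library, and CNLX21 was the highest of all. With TMM or total counts 3 of 6, and with the 3 RT-qPCR controls 4 of 6, were above every Holstein library. Holstein cows averaged 2811 ± 195 (SD, n = 5) and Montbéliarde cows 3501 ± 649 (SD, n = 6), with a log2 fold change of 0.31 (SE 0.16, 95% interval -0.04 to 0.66). The difference did not pass the test (edgeR, unadjusted p = 0.0746, adjusted p = 0.377). The 2 libraries with the highest miR-93, CNLX21 and CNLX15, were also the 2 with the lowest sum of the epithelial markers. Both are Montbéliarde libraries, so leaving them out lowers the fold change of miR-93 whatever its cause. Leaving them out was tried only once the data had been seen. The log2 fold change of miR-93 was then 0.22 (edgeR, adjusted p = 0.507). That of miR-25 was 0.40 (adjusted p = 0.193) and that of miR-106b was 0.07 (adjusted p = 0.903). The part of the cell makeup was not tested.

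miR-106b had the fewest reads, 298 to 932 per library. Its normalized read count was 572, 619, 562, 587 and 552 in the Holstein libraries. It was 497, 785, 566, 581, 668 and 676 in the Montbéliarde libraries, where CNLX15 was the highest and CNLX13 the lowest of all 11. The Holstein values lay within the range of the Montbéliarde values. Holstein cows averaged 579 ± 26.0 (SD, n = 5) and Montbéliarde cows 629 ± 102 (SD, n = 6), and the log2 fold change of 0.11 (SE 0.16, 95% interval -0.22 to 0.45) did not pass the test (edgeR, unadjusted p = 0.481, adjusted p = 0.789). The interval leaves room for a log2 fold change in either direction, including one as large as that of miR-25.

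None of the 3 members passed the adjusted threshold in edgeR, against 0.364% of all tested miRNAs, which were miR-16a and miR-186, and 1 of 3, miR-25, passed it in DESeq2, against 3.82% of the tested miRNAs. Before adjustment, 1 of 3 members had an edgeR p of at most 0.05, against 14.2% of all tested miRNAs, of which 42 were higher in Montbéliarde and 36 in Holstein. In the DESeq2 Wald test, miR-25 (unadjusted p = 0.000575) and miR-93 (unadjusted p = 0.0371) had such a p, against 85 of the 550 tested miRNAs. The log2 fold changes of all 3 members were above the median of all tested miRNAs, 0.03. With 248 tested miRNAs having a larger absolute log2 fold change and 32 a smaller p, miR-25 did not stand at the edge of the table.

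The spread between cows was wider in Montbéliarde for miR-93 and miR-106b than for miR-25. The coefficient of variation of miR-93 was 6.94% in Holstein and 18.5% in Montbéliarde, where counting alone would give 1.78% and 1.86%. For miR-106b it was 4.50% and 16.2%, with a counting error of 3.93% and 4.41%, so that the Holstein libraries varied little more than counting would make them. The coefficient of miR-25 was 8.12% in Holstein and 9.25% in Montbéliarde, with a counting error below 1% (0.757% and 0.758%). These spreads are descriptions, and their difference between the breeds was not tested.

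Ratios of 2 members within a library do not depend on the scaling between libraries, and they ask whether the members shifted together. The ratio of miR-25 to miR-93 was 5.75, 5.84, 6.39, 4.98 and 5.15 in the Holstein libraries and 7.26, 5.33, 5.57, 5.79, 4.85 and 6.80 in the Montbéliarde libraries. Both the highest and the lowest ratio were found in Montbéliarde, in CNLX13 and CNLX21. On the log2 scale the ratio was 2.49 ± 0.15 in Holstein cows (SD, n = 5) and 2.56 ± 0.22 in Montbéliarde cows (SD, n = 6), a difference of 0.07 (95% interval -0.20 to 0.34) that did not pass the test (exact permutation test, two-sided, p = 0.554, adjusted over 6 measures p = 0.554). The interval holds shifts of up to 0.34 on the log2 scale, which is close to the size of the fold changes of miR-25 and miR-93 themselves.

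The ratio of miR-25 to miR-106b ranged from 25.2 to 31.4 in Holstein, with a median of 26.3, and was 45.7, 27.1, 32.2, 34.5, 32.6 and 26.8 in the Montbéliarde libraries. CNLX13, which had the lowest miR-106b and the highest miR-25, had the highest ratio. The log2 ratio was 4.76 ± 0.13 in Holstein cows (SD, n = 5) and 5.03 ± 0.28 in Montbéliarde cows (SD, n = 6), a difference of 0.26 (95% interval -0.03 to 0.57) that did not pass the test (exact permutation test, two-sided, p = 0.0758, adjusted p = 0.152). The ratio of miR-93 to miR-106b was 4.40, 4.49, 4.92, 5.07 and 5.45 in Holstein and 6.29, 5.09, 5.78, 5.96, 6.71 and 3.95 in Montbéliarde. Here CNLX23 had the lowest ratio of all libraries, whereas 4 other Montbéliarde libraries were above every Holstein library. The log2 ratio was 2.28 ± 0.13 (SD, n = 5) and 2.47 ± 0.28 (SD, n = 6), a difference of 0.19 (95% interval -0.11 to 0.46; exact permutation test, p = 0.180, adjusted p = 0.269). Without CNLX23, both ratios to miR-106b were higher in Montbéliarde, by 0.32 for miR-25 and 0.29 for miR-93 on the log2 scale (exact permutation test, adjusted p = 0.0476 for each). With CNLX23 kept, the difference of medians of the ratio of miR-25 to miR-106b, 0.30, also passed (exact permutation test, adjusted p = 0.0390). This call thus depended on the statistic as well as on the library. These adjusted p-values counted the share of the whole cluster among the 6 measures. Before adjustment, the exact permutation p for miR-25 to miR-106b was 0.0317 without CNLX23 and 0.0130 for the medians. Adjusted over the 5 measures without that share, neither of these 2 calls would pass the threshold of 0.05. The exact permutation p for miR-93 to miR-106b without CNLX23, 0.0159 before adjustment, would still pass.

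**Figure D3:**
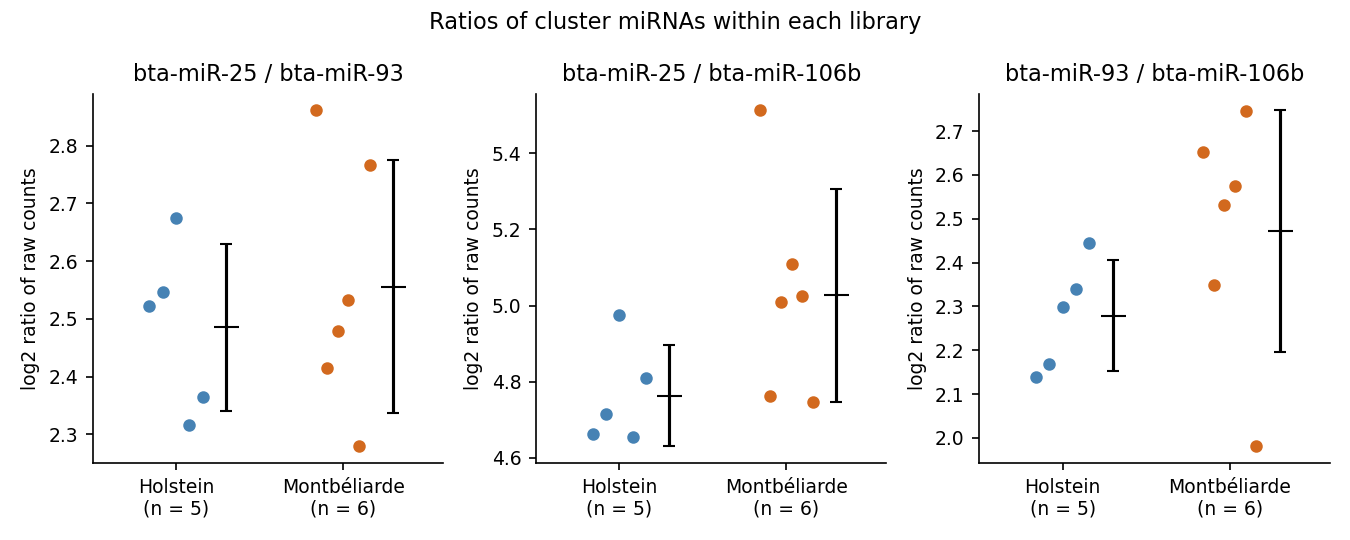
Log2 ratios of the raw counts of 2 cluster miRNAs within each library (vertical axes, which do not start at 0). Points are single libraries in order of their tags, 5 Holstein (blue) and 6 Montbéliarde (orange), and black bars give the mean with its SD. The lowest point of the right panel is the Montbéliarde library CNLX23, at 1.98.

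The cluster as a whole took a small share of the counted reads, most of it from miR-25. The share was 0.186%, 0.183%, 0.207%, 0.207% and 0.197% in the Holstein libraries. In the Montbéliarde libraries it was 0.259%, 0.228%, 0.202%, 0.274%, 0.280% and 0.260%, where CNLX17 fell inside the Holstein range and the other 5 were above it. Holstein cows averaged 0.196% ± 0.0116 (SD, n = 5) and Montbéliarde cows 0.251% ± 0.0296 (SD, n = 6), a difference of 0.0547 percentage points (95% interval 0.0205 to 0.0850). With each pair of miRNAs in a constant ratio reduced to 1 in the total, the difference was 0.0602 percentage points. The cluster's share is a sum over the members in which miR-25 weighs most. It repeats the difference of miR-25 on the scale of total counts and is no independent evidence of it, so that no p is given.

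The relatives with the same seed show how much of each seed family the cluster supplied. Besides miR-93 and miR-106b, the miR-17 seed family held miR-17-5p and miR-20a of the miR-17 to miR-92a cluster and miR-20b and miR-106a of the miR-106a-363 cluster. miR-93 was the most abundant of the 6, with 59.9% ± 2.11 of the family's reads in Holstein (SD, n = 5) and 66.8% ± 5.01 in Montbéliarde (SD, n = 6). miR-17-5p followed with 17.3% ± 1.44 and 13.1% ± 2.14, and miR-106b with 12.4% ± 0.732 and 12.1% ± 1.53. The sequences of miR-17-5p, miR-20a, miR-20b, miR-106a, miR-93 and miR-106b are alike, and how reads matching more than 1 of them were counted is not given in the sources used here, so the split within the family is uncertain.

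miR-93 and miR-106b together made up 70.9%, 72.0%, 70.4%, 73.8% and 74.2% of the reads of their seed family in the Holstein libraries. In the Montbéliarde libraries they made up 79.1%, 81.2%, 81.1%, 77.9%, 82.5% and 71.7%. All Montbéliarde libraries except CNLX23 were above every Holstein library. The mean was 72.3% ± 1.68 in Holstein cows (SD, n = 5) and 78.9% ± 3.89 in Montbéliarde cows (SD, n = 6), which is higher by 6.67 percentage points (95% interval 2.36 to 10.4; exact permutation test, two-sided, p = 0.0152, adjusted over 6 measures p = 0.0455). Adjusted over 5 measures, without the share of the whole cluster, the p was 0.0758, so the call depended on which measures were adjusted together. The measure was chosen with earlier results of these data known. When any 1 library other than CNLX23 was left out, the adjusted p was above 0.05, and it lay between 0.0476 and 0.100 over the 11 such tests. The unadjusted p was at most 0.05 in 11 of 11 of them. CNLX15 and CNLX21, the libraries lowest in epithelial markers, also had the highest shares, so leaving them out lowers the difference whatever its cause. Without them the difference was 5.20 percentage points (exact permutation test, adjusted p = 0.111). The part of the tissue's cell makeup in the difference was not tested.

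The other 4 members of the miR-17 seed family had log2 fold changes below 0, with a median of -0.26, but in edgeR none passed the test and none had an unadjusted p of at most 0.05, and none passed the adjusted threshold in DESeq2. Before adjustment, the DESeq2 Wald test gave miR-17-5p a p of 0.0258. The normalized read count of miR-17-5p was 810 ± 62.1 in Holstein cows (SD, n = 5) and 672 ± 75.6 in Montbéliarde cows (SD, n = 6) (log2 fold change -0.27, SE 0.15, edgeR adjusted p = 0.412). That of miR-20a was 343 ± 18.7 and 288 ± 42.6 (log2 fold change -0.26, SE 0.17, adjusted p = 0.491). miR-20b and miR-106a were low, with means over the 11 libraries of 68.5 and 65.9. The higher family share of miR-93 and miR-106b in Montbéliarde thus went with values above 0 for these 2 and below 0 for the other 4, of which none passed the test by itself.

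**Figure D4:**
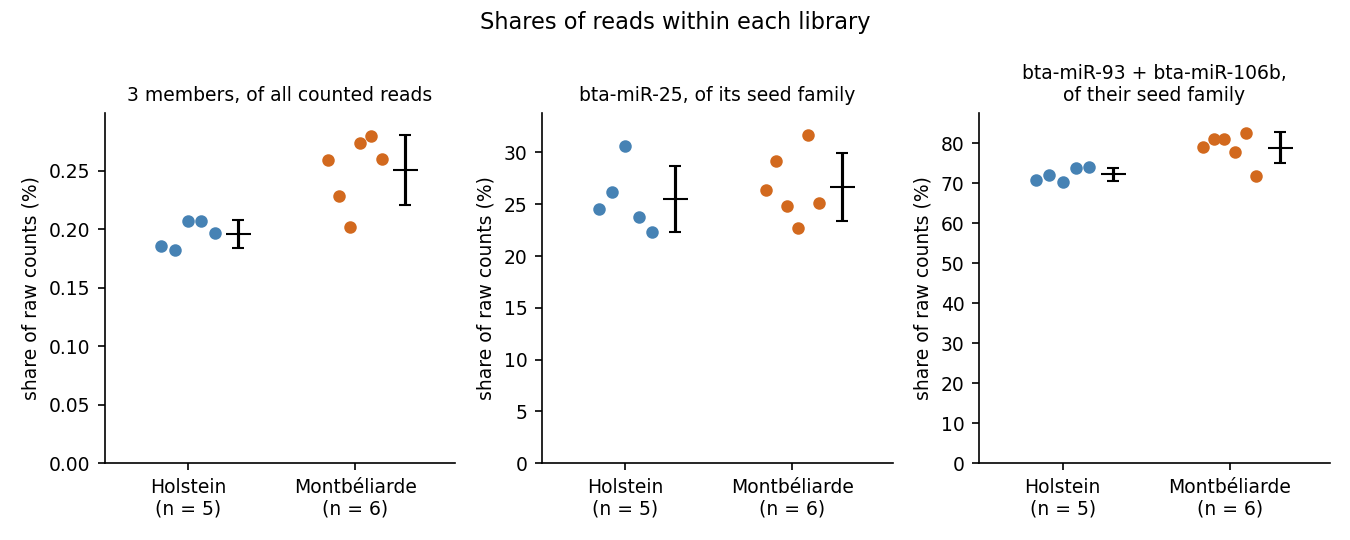
Shares of raw counts in percent (vertical axes from 0) for the 3 cluster miRNAs among all counted reads, for miR-25 within its seed family, and for miR-93 with miR-106b within theirs. Points are single Holstein (blue) and Montbéliarde (orange) libraries and black bars the mean with its SD. In the right panel 5 of 6 Montbéliarde points lie above the Holstein points, whereas the middle panel shows overlapping ranges.

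In the miR-25 seed family the cluster supplied a smaller part. miR-92a, which comes from both paralogous clusters, held 67.4% ± 2.60 of the reads in Holstein (SD, n = 5) and 67.2% ± 2.70 in Montbéliarde (SD, n = 6), followed by miR-25. The share of miR-25 was 24.5%, 26.2%, 30.6%, 23.8% and 22.4% in the Holstein libraries and 26.4%, 29.2%, 24.8%, 22.7%, 31.7% and 25.1% in the Montbéliarde libraries. Holstein cows averaged 25.5% ± 3.17 (SD, n = 5) and Montbéliarde cows 26.7% ± 3.28 (SD, n = 6). The difference of 1.18 percentage points (95% interval -3.40 to 5.46) did not pass the exact permutation test (p = 0.552, adjusted p = 0.554). Thus miR-25 and the rest of its family, most of whose reads are miR-92a, were not told apart in their breed difference. The interval allows a shift of several percentage points. The less abundant miR-363 and miR-32 weigh little in this share, and their own values are given with the other members. Over the 11 tests that leave out 1 library the difference lay between 0.165, without CNLX21, and 2.45 percentage points, without CNLX5.

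Of the other 5 miRNAs with the miR-25 seed, miR-367 had no count in any library and the other 4 were tested without passing. miR-92a had a normalized read count of 41965 ± 4490 in Holstein cows (SD, n = 5) and 51808 ± 6748 in Montbéliarde cows (SD, n = 6), with a log2 fold change of 0.30 (SE 0.14, edgeR unadjusted p = 0.0531, adjusted p = 0.348). miR-92b was 1950 ± 220 and 2551 ± 795 (log2 fold change 0.38, SE 0.21, adjusted p = 0.412). The log2 fold changes of miR-363, at -0.23 (SE 0.28), and of miR-32, at -0.16 (SE 0.26), had the other sign. Before adjustment edgeR gave none of these 4 a p of at most 0.05, and none passed the adjusted threshold in DESeq2. The unadjusted p of miR-92a in the DESeq2 Wald test was 0.0210.

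The paralogous clusters are listed in full, with the members that also share a seed. Of the 7 tested miRNAs of the miR-17 to miR-92a cluster, 2 had log2 fold changes above 0 and 5 below 0, with a median of -0.27, and of the 6 of the miR-106a-363 cluster 1 was above 0 and 5 were below, with a median of -0.16. None passed the adjusted threshold in edgeR. miR-19a and miR-19b, which had an unadjusted p of at most 0.05 there and were higher in Holstein, passed it in DESeq2 (adjusted p = 0.0453 and 0.0258). miR-19b, which is counted in both clusters because they carry it in copies, was 1642 ± 68.5 in Holstein cows (SD, n = 5) and 1086 ± 256 in Montbéliarde cows (SD, n = 6) (log2 fold change -0.60, SE 0.17, edgeR unadjusted p = 0.00314, adjusted p = 0.171). miR-19a was 145 ± 17.3 and 85.9 ± 29.3 (log2 fold change -0.76, SE 0.23, unadjusted p = 0.00429, adjusted p = 0.171). Whether the paralogous clusters differed from the miR-106b, miR-93 and miR-25 cluster was not tested beyond the family shares.

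**Figure D5:**
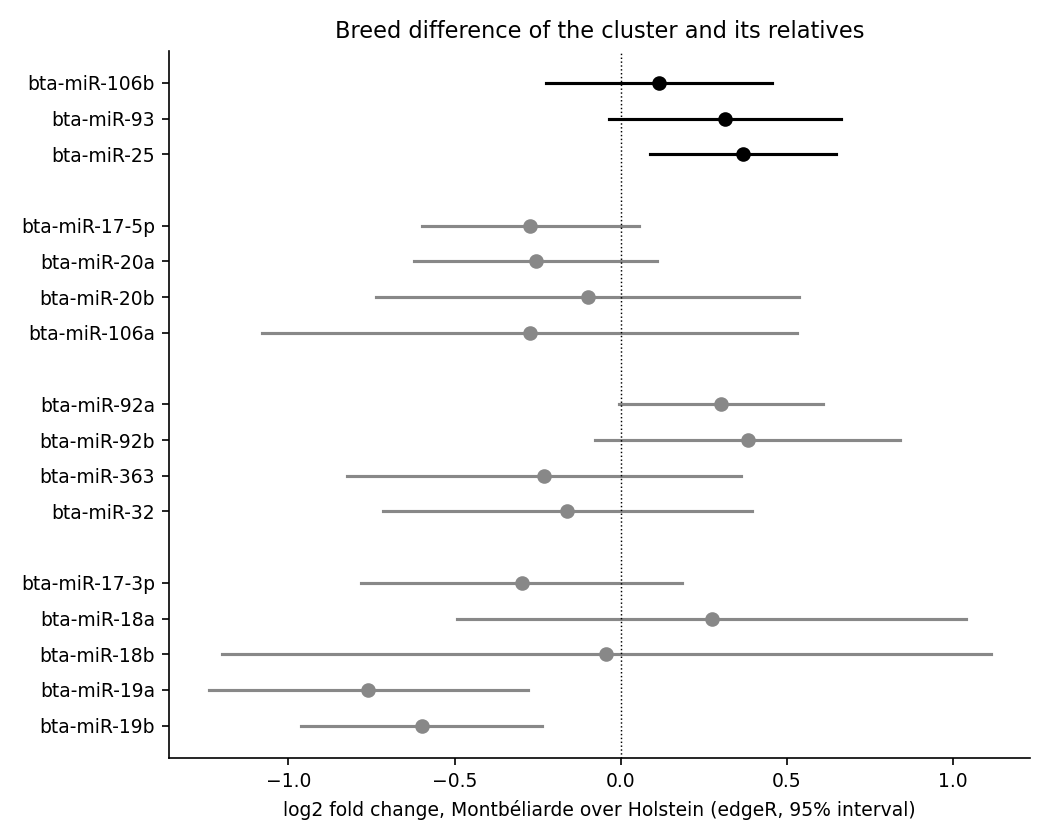
Log2 fold changes, Montbéliarde over Holstein, of the 3 cluster miRNAs (black) and of their relatives (grey), with 95% intervals from edgeR. From top to bottom the groups are the cluster, the other members of the miR-17 seed family, the other members of the miR-25 seed family, and the remaining members of the paralogous clusters. The cluster's values are 0.11, 0.31 and 0.37, and the intervals of miR-19a and miR-19b lie below 0.

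Across the 11 cows, miR-93 and miR-25 varied together more closely than either did with miR-106b in these values, on the scale of log2 TMM-scaled CPM. Pearson's r of miR-93 with miR-25 was 0.75 (permutation test, two-sided, p = 0.00644, adjusted over 3 pairs p = 0.0193), with a Spearman's rho of 0.65 (p = 0.0362, adjusted p = 0.109). It was 0.53 for miR-106b with miR-93 (p = 0.0943, adjusted p = 0.141; rho 0.41, p = 0.213) and 0.28 for miR-106b with miR-25 (p = 0.396, adjusted p = 0.396; rho 0.33, p = 0.328). The last of these depended on single libraries, with an r of 0.67 without CNLX13 (adjusted p = 0.0518) and of 0.10 without CNLX21. The difference between these coefficients was not tested.

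The relation of miR-93 with miR-25 pooled the breeds. With levels centred on their breed means r was 0.60 (permutation test, p = 0.0515, adjusted p = 0.154), and in the 6 Montbéliarde libraries alone it was 0.67 (exact permutation test, p = 0.147). The 5 Holstein libraries were too few for a coefficient. Without CNLX21 and CNLX15, which were farthest from the median of miR-93 and are also the libraries lowest in epithelial markers, r was 0.61 (permutation test, p = 0.0816), which no longer passed the threshold although the coefficient stayed positive. The call was also lost without CNLX21 alone (r = 0.66, adjusted p = 0.120) or without CNLX1 alone (r = 0.69, adjusted p = 0.0700), and was kept without CNLX15 alone (r = 0.73, adjusted p = 0.0337). For miR-106b the coefficients changed sign without CNLX15 and CNLX21, to an r of -0.10 with miR-93 and -0.19 with miR-25. Without CNLX15 and CNLX13, the libraries farthest from the median of miR-106b, its r was 0.53 with miR-93 and 0.64 with miR-25 (permutation test, adjusted p = 0.138 and 0.122).

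For each member, the miRNAs with the most similar pattern over the 11 libraries were looked up among 214 miRNAs with a mean normalized read count of at least 100. These coefficients pool the breeds, so that miRNAs with the same breed difference look alike. They also describe libraries that share depth, scaling and cell makeup, and no p is given. miR-106b was most like miR-369-3p (r = 0.94), miR-380-3p (r = 0.91) and miR-132 (r = 0.88). miR-369-3p and miR-380-3p come from the large imprinted miRNA cluster of the DLK1 and DIO3 locus. miR-93 was at place 58 and miR-25 at place 87 of this ranking, so that the nearest patterns did not belong to the cluster itself.

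miR-93 was most like miR-28 (r = 0.90), let-7c (r = 0.90) and miR-504 (r = 0.90), with miR-25 at place 16 and miR-106b at place 57. miR-25 was most like miR-455-5p (r = 0.89), miR-140 (r = 0.82) and miR-504 (r = 0.81), with miR-93 at place 8 and miR-106b at place 73. miR-140 and miR-455-5p are known from cartilage and other mesenchymal cells. The normalized read count of miR-140 was 4777 ± 466 in Holstein cows (SD, n = 5) and 6193 ± 989 in Montbéliarde cows (SD, n = 6). miR-504, near to both miR-93 and miR-25, was 74.5 ± 18.9 and 169 ± 96.8, and its log2 fold change of 1.16 (SE 0.37) did not pass the adjusted threshold in edgeR (adjusted p = 0.171) and passed it in DESeq2 (adjusted p = 0.0453).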

How the data were processed

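Small RNA was sequenced from 11 mammary biopsies. The authors removed adaptors and filtered reads by size, aligned them to the bovine assembly btau5.0.1 and counted miRNAs of miRBase with ncPRO-seq and miRDeep2. The values used here are the raw counts of reads that the authors deposited for each miRNA in each library, which were not normalized. The submitters' processing notes name bcl2fastq 2.17.1.14 and DESeq2 1.18.1. How reads matching several miRNAs were counted is not given in the sources used here. The counts of 10 pairs of listed miRNAs were in a constant ratio in every library, among them miR-26c with the RT-qPCR control miR-26a. The table also holds 11 columns of normalized values, breed means, and the authors' fold changes and p-values, none of which was used.

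Normalized read counts were recomputed with the size factors of DESeq2 1.42.0. Breeds were compared by edgeR 4.0.16 in R 4.3.3 (TMM, robust glmQLFit, glmQLFTest) over 550 miRNAs whose counts summed to 10 or more, with Benjamini-Hochberg adjustment and a threshold of 0.05. P-values set the difference between the breeds against the spread between cows. Ratios and shares were compared by two-sided exact permutation tests over 462 assignments, whose smallest p is 0.00216. Their intervals hold the shifts that the same test does not reject, and their p-values were adjusted over 6 measures, the share of the whole cluster included. Correlations used 100000 resamples, or all orders for 6 libraries. The computations were tested on simulated data. Alternatives covered DESeq2, limma 3.58.1, the scaling, filters, listed rows, library size, pseudocount, statistic and each library left out. Plots used matplotlib 3.10.9.

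The members and lists were chosen with earlier results of these data known. Named were the members, miRNAs with the same seed, the paralogous clusters, the RT-qPCR controls and the 3 miRNAs most like each member. Gene names came from RefSeq on ARS-UCD2.0, so no coordinates are given. At these depths counting error is small beside the spread between cows, except for miR-106b in Holstein. RT-qPCR and milk data were not analysed here.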

Additional observations from a re-analysis of the deposited data

How the results depend on the processing

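The log2 fold changes of the 3 members kept their direction in the 24 alternatives tried for each. They ranged from 0.33 to 0.46 for miR-25, from 0.22 to 0.38 for miR-93 and from 0.07 to 0.22 for miR-106b, and neither miR-93 nor miR-106b passed the threshold in any of them. miR-25 passed it only with DESeq2 (0.37, adjusted p = 0.0356) and with DESeq2 on every miRNA with a count, chosen after seeing the data (0.37, adjusted p = 0.0256). Of all tested miRNAs, 21 and 20 were called by these 2 fits, 1 by edgeR on total counts, and 0 by edgeR with DESeq2 size factors, upper-quartile factors or the 3 RT-qPCR controls, where the unadjusted p was at most 0.05 for 82, 78 and 67. With each library left out in turn edgeR called 0 to 6, and 60 to 99 before adjustment.

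With medians in place of means, the difference in the log2 ratio of miR-25 to miR-93 was -0.0165. That of miR-25 to miR-106b was 0.30 (exact permutation test, adjusted p = 0.0390 over 6 measures, the share of the whole cluster included). The family share of miR-93 and miR-106b was 8.09 percentage points higher in Montbéliarde (adjusted p = 0.147). With each library left out, the log2 ratios to miR-106b differed by 0.17 to 0.32 for miR-25 and by 0.14 to 0.29 for miR-93, the cluster share by 0.0489 to 0.0643 and the family share by 5.95 to 8.10 percentage points. The family share of miR-25 differed by 0.165 to 2.45 percentage points. The correlation lay between 0.36 and 0.67 for miR-106b with miR-93 and between 0.10 and 0.67 for miR-106b with miR-25. That of miR-93 with miR-25 lay between 0.66 and 0.85, and was 0.60 on centred levels, 0.67 in Montbéliarde and 0.61 without the 2 farthest libraries. Without the 2 libraries lowest in epithelial markers, chosen after seeing the data, the cluster share differed by 0.0530, the family share of miR-93 and miR-106b by 5.20 and that of miR-25 by -0.73 percentage points, and the correlations were -0.10, -0.19 and 0.61. Adjusted over 5 measures, without the share of the whole cluster (chosen after seeing the data), the family share of miR-93 and miR-106b, higher by 6.67 percentage points, had an adjusted p of 0.0758. The cause was not tested in any of these cases.

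No paired analysis was possible, because each cow belongs to 1 breed and the labels give no pairs of cows. With 5 and 6 cows, the 95% intervals of the log2 fold changes ran from -0.22 to 0.45 for miR-106b and from -0.04 to 0.66 for miR-93, and values within them could not be told apart from the estimates.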

Other observations

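The 3 internal controls of the RT-qPCR, which served as one of the scalings for the cluster, were themselves compared. miR-26a, which is abundant in many tissues, had a normalized read count of 576239 ± 89016 in Holstein cows (SD, n = 5) and 641407 ± 302064 in Montbéliarde cows (SD, n = 6) (log2 fold change 0.14, SE 0.23, edgeR adjusted p = 0.819). miR-191 was 128492 ± 12073 and 98402 ± 30755 (log2 fold change -0.40, SE 0.19, unadjusted p = 0.0539, adjusted p = 0.348). miR-92a, with a log2 fold change of 0.30, has the seed of miR-25. None of the 3 passed the test, and their log2 fold changes did not share one sign.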
